A study of Mus musculus with 22 samples.

Results

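Neuronatin (Nnat) and 6 further imprinted genes, Dlk1, Mest, Meg3, Peg3, Ndn and Snrpn, were followed through the hypothalamic cell types of ob/ob mice after a brain injection of fibroblast growth factor 1 (FGF1). The 7 genes were taken by name, and were found in both deposited count tables, among 20668 genes in nuclei and 16304 in whole cells. They had been picked because earlier results on these same libraries showed how Nnat and its companions differed between FGF1 and vehicle. Their differences between treatments are therefore given below as a description. Where it is said that edgeR called a member or did not, the contrast had served to pick the genes, and nothing is read from it.

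Leptin-deficient, obese and diabetic male ob/ob mice, 11 weeks of age, received 1 intracerebroventricular (icv) injection of 3 µg FGF1 or of phosphate-buffered saline vehicle, and the vehicle mice were pair-fed to the FGF1 mice. Single nuclei were profiled from hypothalamic punches on Day 1 after the injection (3 FGF1 and 3 vehicle mice) and on Day 5 (2 FGF1 and 2 vehicle mice). Whole hypothalamic cells were profiled on Day 5 from further mice, 6 with FGF1 and 6 with vehicle. Their tissue was a triangular section of the mediobasal hypothalamus. The study names Janvier as the source of the whole-cell mice and Jackson as that of the nuclei mice. Nuclei and whole cells thus differed in mouse stock and dissection as well as in preparation. All 22 mice lacked leptin, no lean mouse was measured, and every batch held 1 FGF1 and 1 vehicle mouse.

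An imprinted gene is read mainly from the copy inherited from 1 parent, and the silent copy is marked by DNA methylation or by a noncoding RNA of the same domain. Many such genes act on growth, feeding and metabolism, and many are strongly expressed in the hypothalamus. The libraries counted RNA without separating the parental copies, so the values below are total levels and say nothing about the imprint.

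Nnat encodes a small membrane protein of the endoplasmic reticulum that alters calcium handling, and lies within an intron of Blcap on the other strand (GRCm38, chr2:157560078-157562522, up to 4 exons). Dlk1 (chr12:109452823-109463336) encodes a Notch-like transmembrane ligand that restrains differentiation. Meg3 (chr12:109541001-109571726) is a long noncoding RNA of the same domain, read from the opposite parental copy. Mest (chr6:30723547-30748465) encodes a hydrolase-like protein tied to fat cell growth, and Peg3 (chr7:6703892-6730431) encodes a zinc finger protein. Ndn (chr7:62346569-62350262), a gene of 1 exon, encodes necdin, which restrains the growth of neurons. Snrpn (chr7:59982495-60140219) encodes a spliceosome protein, and shares its strand and region with Snurf and Gm38393, so its counts may hold reads from those models. Whether counting used strand was not given in the sources used here, so Nnat and Blcap, and likewise Airn and Igf2r below, may share reads. Ndn and Snrpn both lie in the domain that is lost in Prader-Willi syndrome.

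The promoters of Nnat and Ndn are shown because within each day their FGF1 to vehicle difference had 1 sign in every nuclear cell type tested, below 0 on both days for Nnat, and above 0 on Day 1 and below 0 on Day 5 for Ndn. The Day 1 sign of Ndn turned in tanycytes and astrocytes when FGF1 mouse 1 was left out, as given below. Each runs from 250 bases before to 50 bases after a RefSeq transcript start (GRCm38.p6, plus strand, 5′ to 3′), and capitals mark each CG pair, the site of DNA methylation. The Nnat window is chr2:157559828-157560127 and the Ndn window is chr7:62348027-62348326. The Ndn window lies inside the gene span given above, since that span is from GENCODE and the window from a RefSeq start.
Nnat: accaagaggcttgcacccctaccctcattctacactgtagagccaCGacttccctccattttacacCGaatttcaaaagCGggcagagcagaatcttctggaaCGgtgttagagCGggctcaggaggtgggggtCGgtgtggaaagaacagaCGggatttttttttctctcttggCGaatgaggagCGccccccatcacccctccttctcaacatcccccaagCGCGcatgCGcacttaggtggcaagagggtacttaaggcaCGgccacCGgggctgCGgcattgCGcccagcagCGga
Ndn: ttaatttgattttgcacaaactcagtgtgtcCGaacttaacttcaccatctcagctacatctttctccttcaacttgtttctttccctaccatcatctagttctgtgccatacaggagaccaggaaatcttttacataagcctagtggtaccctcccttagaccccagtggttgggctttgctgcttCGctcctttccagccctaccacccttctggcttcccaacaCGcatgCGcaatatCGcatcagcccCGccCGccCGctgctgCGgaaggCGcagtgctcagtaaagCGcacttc
The Nnat window held 17 CG pairs, a number that 31.4% of 32851 mouse promoter windows of 300 bases reached or passed, and the Ndn window held 11 (41.4%), against a median of 7. The windows of Meg3 (first start) and Peg3 held 13 each and that of Dlk1 held 9. The 3 Mest windows held 8, 17 and 17, and the 4 Snrpn windows held between 2 and 7. CG pairs were counted as letters only, and no methylation was measured.

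Levels are given in CPM, the unique molecular identifiers (UMIs) of a gene summed per mouse and cell type and scaled to a common library total with TMM factors. Mice held 591 to 5768 nuclei with 2721087 to 16345981 UMIs, or 1967 to 7926 cells with 2652897 to 11866269 UMIs. Of the nuclei, 318 barcode sequences occurred in more than 1 library, and of the whole cells, 1791 did. The library of Day 1 FGF1 mouse 1 stood apart, with 2.549% of its UMIs from ribosomal protein genes against 0.859% to 1.555% in the other 9 nuclei libraries. Some results that rest on it are also given without it, and for some others only the values of single mice are shown. Nuclei keep the deposited annotation. The summed level of 5 neuron markers was 3878 to 4491 CPM in unmapped neurons of Day 1 vehicle mice, which are neurons not assigned to a published type. It was 3275 to 4182 in nuclei labelled Olig, 3061 to 4331 in those labelled Micro and 2917 to 3694 in those labelled COP, so these labels went against their own RNA and are given only as labels. In nuclei labelled astrocytes, tanycytes and ependymal cells it was 1294 to 2211, 782.6 to 1257 and 354.0 to 908.0. Whole-cell clusters carry no deposited name and are called tanycyte-like and so on from their markers. Tanycytes are radial glia that line the floor of the third ventricle, and ependymal cells are the ciliated cells of the ventricle wall. Within a cell type, the sums cannot tell fewer RNA molecules per cell from fewer cells that carry them. Where groups are said not to overlap, this can arise by chance with so few mice, and the share of all genes without overlap is not given. The share of genes called is another measure. The types of 1 mouse come from the same library, so counts of types and of comparisons within a batch are not independent.

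In Day 1 nuclei, Nnat was lower by more than an order of magnitude in the cells of FGF1 mice that line the ventricle. Ependymal cells of the FGF1 mice held 242.5, 138.0 and 119.9 CPM (17, 12 and 7 UMIs in 18, 23 and 18 nuclei), and those of the vehicle mice held 4325, 3756 and 3405 (279, 244 and 240 UMIs in 16, 13 and 18 nuclei). The means were 166.8 ± 66.18 and 3829 ± 464.3 (SD, n = 3 each), a log2 fold change of -4.45 ± 0.40 (SE), or 21.83-fold. Tanycytes of the FGF1 mice held 421.1, 166.1 and 136.3 CPM against 5445, 5855 and 3721 in vehicle mice, a log2 fold change of -4.34 ± 0.52, or 20.27-fold. In both types the highest FGF1 mouse stayed far under the lowest vehicle mouse. Within the 3 batches the fold was 14.04, 31.34 and 31.33 in ependymal cells and 8.836, 32.78 and 42.96 in tanycytes, with FGF1 lower each time.

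Astrocytes of the FGF1 mice held 824.3, 166.1 and 114.2 CPM of Nnat against 2226, 1314 and 1500, a log2 fold change of -2.29 ± 0.78. The groups did not overlap, but FGF1 mouse 1 stood near the vehicle mice, and within its batch the fold was 1.82 against 13.4 and 11.51 in the other batches. Without that mouse the log2 fold change in astrocytes was -3.64. In n16.Rgs16/Vip neurons the FGF1 mice held 4198, 900.5 and 758.5 CPM against 3536, 4145 and 2841. There FGF1 mouse 1 was the highest of all 6 mice and the other FGF1 mice were the lowest. Unmapped neurons held 495.5, 95.64 and 86.97 against 473.1, 598.0 and 308.6, where FGF1 mouse 1 lay within the vehicle range and the other FGF1 mice were the lowest. In the same unmapped neurons the summed astrocyte markers were 61.86 to 78.69 CPM in FGF1 and 93.01 to 103.8 in vehicle mice, and the summed ependymal markers 23.07 to 33.68 against 38.1 to 52.43. Tanycyte markers overlapped (62.2 to 241.2 against 103.7 to 130.6), and the part of these lists in the neuron values was not tested.

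**Figure D1:**
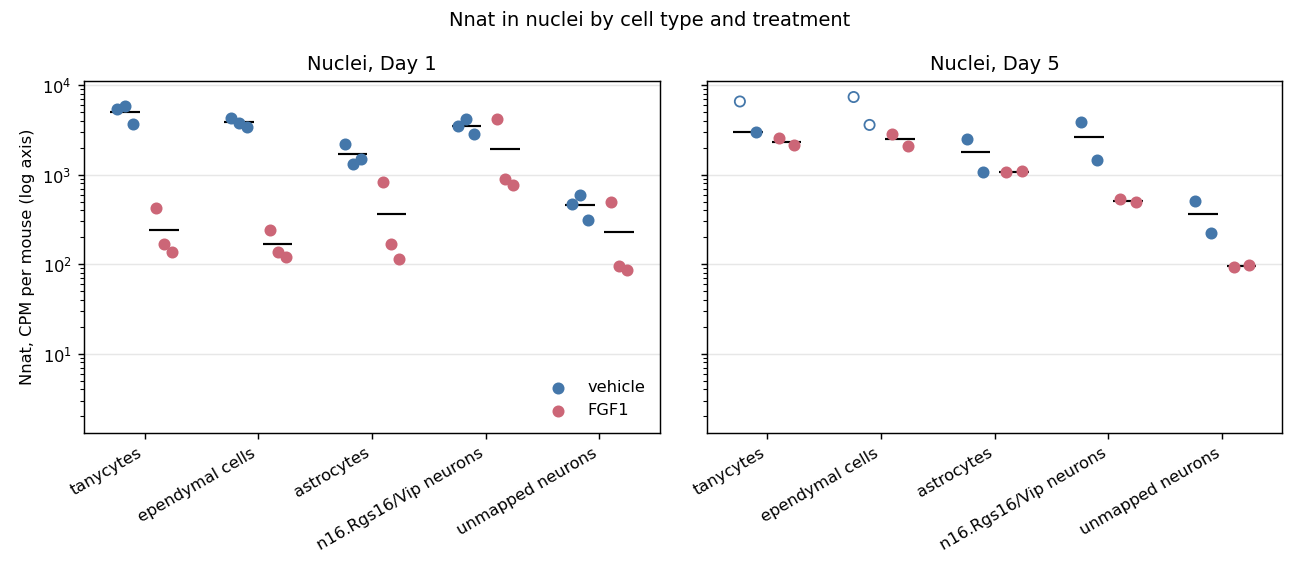
Nnat in nuclei of each mouse (CPM on a log axis) in 5 cell types on Day 1 and Day 5, for vehicle and FGF1 mice. Filled points are mice with at least 10 nuclei of the type, open circles are mice with fewer (CPM without TMM scaling), and black lines are means of the filled points. On Day 1 all FGF1 mice lie far under the vehicle mice in tanycytes and ependymal cells, while on Day 5 the FGF1 mice of these types lie above 2000 CPM.

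Over Day 1 nuclei, Nnat passed the filter on low counts in 18 of 18 cell types with enough mice, and its log2 fold change was below 0 in all 18, with a median of -1.16 and a range of -4.45 to -0.24. All 11 neuron types were among them. The groups did not overlap in 6 types, with no share over all genes given. FGF1 was lower in 35 of the 46 comparisons of a type within a batch, all drawn from the same 3 FGF1 and 3 vehicle mice. FGF1 mouse 1 was the highest FGF1 mouse in all 18 types. The group means thus had 1 sign, while single mice did not. edgeR called Nnat in tanycytes, ependymal cells and VLMC, where it also called 9.14%, 19% and 2.26% of all genes tested. The share called was 1.55% in astrocytes, 0.298% in n13.Agrp/Gm8773 and 0.119% in n29.Nr5a1/Adcyap1 neurons, 0.0288% in n06.Oxt neurons, 0.222% in nuclei labelled Olig, 0.0892% in those labelled COP, and 0.0% in the other types. Since these contrasts served to pick the gene, nothing is read from that count.

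Markers moved with Nnat in the same nuclei. In Day 1 ependymal cells, 4 of the 7 ependymal markers tested fell with FGF1 (edgeR FDR under 0.05), and the sum of the list was 1598 to 2020 CPM against 3589 to 4695. In Day 1 tanycytes, 3 of 4 ependymal markers tested fell (90.9 to 141.3 against 547.5 to 880.4 CPM), as did 1 of 6 tanycyte markers. The summed astrocyte markers did not overlap in ependymal cells (393.8 to 813.0 against 945.7 to 985.2), with neither of the 2 tested called. The sum over neuron markers overlapped between the groups in ependymal cells (median 442.2 against 403.1 CPM) and in tanycytes (590.8 to 1037 against 782.6 to 1257). The part of these differences in the Nnat values was not tested.

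The share of nuclei with at least 1 Nnat UMI followed the same order when each nucleus was thinned to 1000 UMIs. It was 18.36% ± 2.93 in ependymal nuclei of Day 1 FGF1 mice and 95.58% ± 3.97 in those of vehicle mice (SD, n = 3). In tanycytes it was 18.52% ± 11.61 against 91.96% ± 6.26, and in astrocytes 23.92% ± 18.85 against 73.17% ± 10.17. Nuclei labelled Micro gave 14.88% and 30.88%, but they carried neuron markers at close to the neuron level, so they give no background share for a cell type that lacks Nnat. Without thinning, the ependymal shares were 42.27% and 100%, and those of nuclei labelled Micro were 33.15% and 66.86%.

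On Day 5 the ventricle-lining nuclei of FGF1 mice held far more Nnat than those of Day 1. Tanycytes of FGF1 mice 37 and 45 held 2537 and 2144 CPM, and vehicle mouse 38 held 2974 from 14 nuclei. Vehicle mouse 28 gave only 9 tanycytes, with 6564 CPM before TMM scaling. Ependymal cells of the FGF1 mice held 2873 and 2094 CPM. The vehicle mice gave 3 and 8 ependymal nuclei, with 7362 and 3592 CPM before TMM scaling, so no fold was computed for either type. Thinned to 1000 UMIs, 75.27% ± 12.16 of ependymal nuclei of Day 5 FGF1 mice had an Nnat UMI. The Day 1 and Day 5 nuclei came from different mice and batches, so day and batch cannot be told apart, and the difference between days was not tested. Markers differed between the days in the FGF1 mice as well. Ependymal markers summed to 90.9 to 141.3 CPM in tanycytes on Day 1 and 707.9 to 939.0 on Day 5, and to 1598 to 2020 and 4446 to 6342 in ependymal cells. Astrocyte markers in tanycytes summed to 465.8 to 916.9 and 1780 to 2882.

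In neurons of Day 5 both FGF1 mice lay under both vehicle mice in the 2 types described here. Unmapped neurons held 93.31 and 98.73 CPM in FGF1 mice 37 and 45 against 505.3 and 223.7 in vehicle mice 28 and 38, a log2 fold change of -1.97 ± 0.36. In n16.Rgs16/Vip neurons the values were 528.2 and 494.9 against 3852 and 1463, or -2.49 ± 0.29. The summed tanycyte markers were lower there too, at 91.86 to 96.98 against 124.4 to 184.2 CPM in unmapped and 57.41 to 64.72 against 128.1 to 129.9 in n16.Rgs16/Vip neurons, while astrocyte markers in unmapped neurons overlapped (54.53 to 116.6 against 59.77 to 116.6). In unmapped neurons the ependymal markers were higher in FGF1 mice (38.54 to 41.81 against 27.98 to 36.55). Neuron markers were higher in both types, at 4848 to 5134 against 4041 to 4506 and 4708 to 4820 against 3683 to 3941. The part of these lists was not tested. Astrocytes held 1058 and 1106 against 2477 and 1084, or -0.77 ± 0.39, where 1 vehicle mouse matched both FGF1 mice, and the log2 fold change was -0.12 without vehicle mouse 28. In these astrocytes the summed tanycyte markers were 146.4 to 183.5 against 193.2 to 447.8 CPM. Ependymal markers were 216.0 to 282.8 against 124.6 to 175.3 and astrocyte markers 4044 to 5858 against 2680 to 3642, while neuron markers overlapped. Their part in the Nnat, Ndn and Dlk1 values of Day 5 astrocytes was not tested. Of 11 types with enough mice, Nnat passed the filter in 10, with a log2 fold change below 0 in all 10 (median -2.0). FGF1 was lower in 19 of 20 comparisons within a batch, all drawn from the same 2 FGF1 and 2 vehicle mice. The 10 include nuclei labelled COP, Micro and Olig, which carried neuron markers. The groups did not overlap in 8 of the 10 types, where 2 mice stood against 2 and no share over all genes is given. Nnat was called in 7 types, again in the contrast that picked the gene. Of all genes tested, the share called in those types was 0.0782% in n16.Rgs16/Vip, 0.281% in n29.Nr5a1/Adcyap1, 0.0845% in Glu4 and 0.321% in Glu5 neurons, and 1.28%, 0.121% and 0.119% in nuclei labelled COP, Micro and Olig. In the types without a call it was 0.625% in astrocytes, 0.103% in n06.Oxt neurons and 0.0% in unmapped neurons, and in n13.Agrp/Gm8773 neurons, where Nnat did not pass the filter, it was 0.149%.

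In whole cells of Day 5, Nnat in tanycyte-like and ependymal-like cells did not separate by treatment. In batches 1 to 6, tanycyte-like cells of the FGF1 mice held 11660, 14980, 2956, 5329, 7092 and 5431 CPM, against 3879, 9696, 10460, 5408, 10780 and 9664 in the vehicle mice of the same batches. FGF1 was higher in batches 1 and 2 and lower in the other 4, and the log2 fold change was -0.10 ± 0.40 (n = 6). Within the tanycyte-like clusters 0, 7 and 10 it was -0.05, 0.0019 and -0.64. Ependymal-like cells held 6705, 6456, 802.6, 2667, 4171 and 2000 CPM against 1617, 5502, 4609, 3000, 5222 and 4288, with FGF1 higher in batches 1 and 2 again and a log2 fold change of -0.06 ± 0.46. The 802.6 came from only 19 cells.

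Astrocyte-like cells went the other way. In batches 1 to 6 they held 6457, 6044, 2162, 3587, 3723 and 2157 CPM in FGF1 mice against 1235, 2196, 2547, 1239, 2277 and 1927 in vehicle mice, a log2 fold change of 1.09 ± 0.33. FGF1 was lower in 1 of the 6 batches, and the 2 lowest FGF1 mice lay within the vehicle range. The astrocyte-like class was built from clusters 1 and 4, and different clusters held most of it in the 2 groups: cluster 1 had 1531 FGF1 and 7940 vehicle cells, and cluster 4 had 3412 and 697. Nnat was 2166 ± 1057 against 1769 ± 473.6 CPM within cluster 1 (log2 fold change 0.39 ± 0.33) and 4936 ± 2109 against 3532 ± 838.7 within cluster 4 (0.31 ± 0.29). Cluster 4 was thus higher in Nnat than cluster 1 in both groups, and the difference between treatments was smaller within each cluster than over the class. In the same cells 4 of 7 tanycyte markers tested (summed level 139.2 to 322.2 against 98.21 to 131.9 CPM) and 3 of 4 ependymal markers (286.6 to 427.7 against 219.8 to 396.6) rose with FGF1 (edgeR FDR under 0.05). All 5 neuron markers fell (223.0 to 351.4 against 396.6 to 740.2). Their part in the astrocyte value was not tested.

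**Figure D2:**
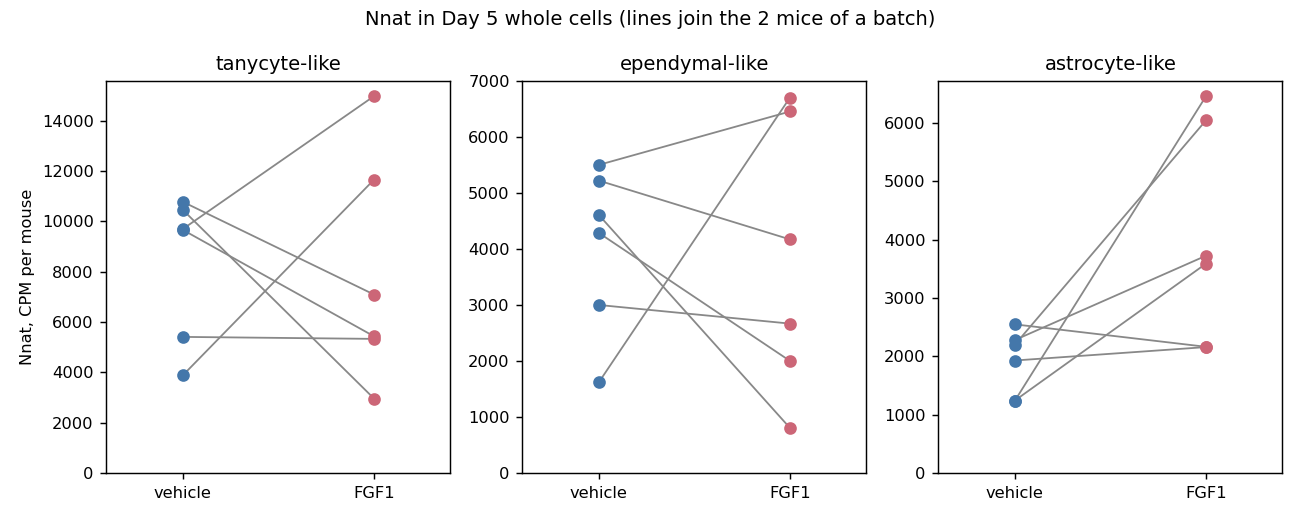
Nnat in whole cells of each Day 5 mouse (CPM, linear axes from 0) in tanycyte-like, ependymal-like and astrocyte-like cells. Points are mice and grey lines join the 2 mice of a batch. In tanycyte-like and ependymal-like cells FGF1 was higher in 2 batches and lower in 4, and in astrocyte-like cells it was lower in 1.

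Across whole cells, Nnat passed the filter in all 11 named types, with a log2 fold change above 0 in 9 and below 0 in 2 (median 0.44), and none was called, where edgeR called 12.6% of genes in astrocyte-like, 5.08% in tanycyte-like and 1.28% in ependymal-like cells. It called 3.24% in OPC-like, 2.25% in oligodendrocyte-like, 1.25% in COP-like, 0.948% in endothelial-like and 0.262% in microglia-like cells, and 0.0% in the other 3 types. FGF1 mouse 28 was among the 2 highest mice in all 11 types and the highest in 9, and FGF1 mouse 7 was among the 2 highest in 9. Ranks are over the mice with enough cells, up to 12, and only 4 vehicle mice counted in VLMC-like and macrophage-like cells. The level of Nnat thus varied by mouse across many types at once.

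Among vehicle mice, Nnat was highest in the cells that line the ventricle in both preparations. In nuclei the order was tanycytes (4499 ± 1374 CPM, n = 4), ependymal cells (3829 ± 464.6, n = 3), n16.Rgs16/Vip neurons (3167 ± 1069, n = 5) and astrocytes (1720 ± 601.3), down to 227.5 in Glu4 neurons, the last of 25 types. The first 3 overlapped, while n16.Rgs16/Vip neurons were above astrocytes in 5 of 5 mice. In whole cells the order was tanycyte-like (8314 ± 2916), ependymal-like (4039 ± 1475) and astrocyte-like cells (1903 ± 552.9), each step held in 6 of 6 mice, and the last of 13 types was COP-like at 442.8. Of genes with a mean of at least 10 CPM, those whose level followed Nnat most closely over the 25 nuclear types were Nr1d1 (Pearson r = 0.842 on log2(CPM + 1)), Prrx1 (0.839), Rgs20 (0.819), Dbi (0.81) and Mt1 (0.803). Over the 13 whole-cell types they were Prdx6 (0.967), Rpn2 (0.908), Ntrk2 (0.905), Mt3 (0.896) and Fam183b (0.894), and no gene was in both lists. These correlations describe types drawn from the same libraries.

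**Figure D3:**
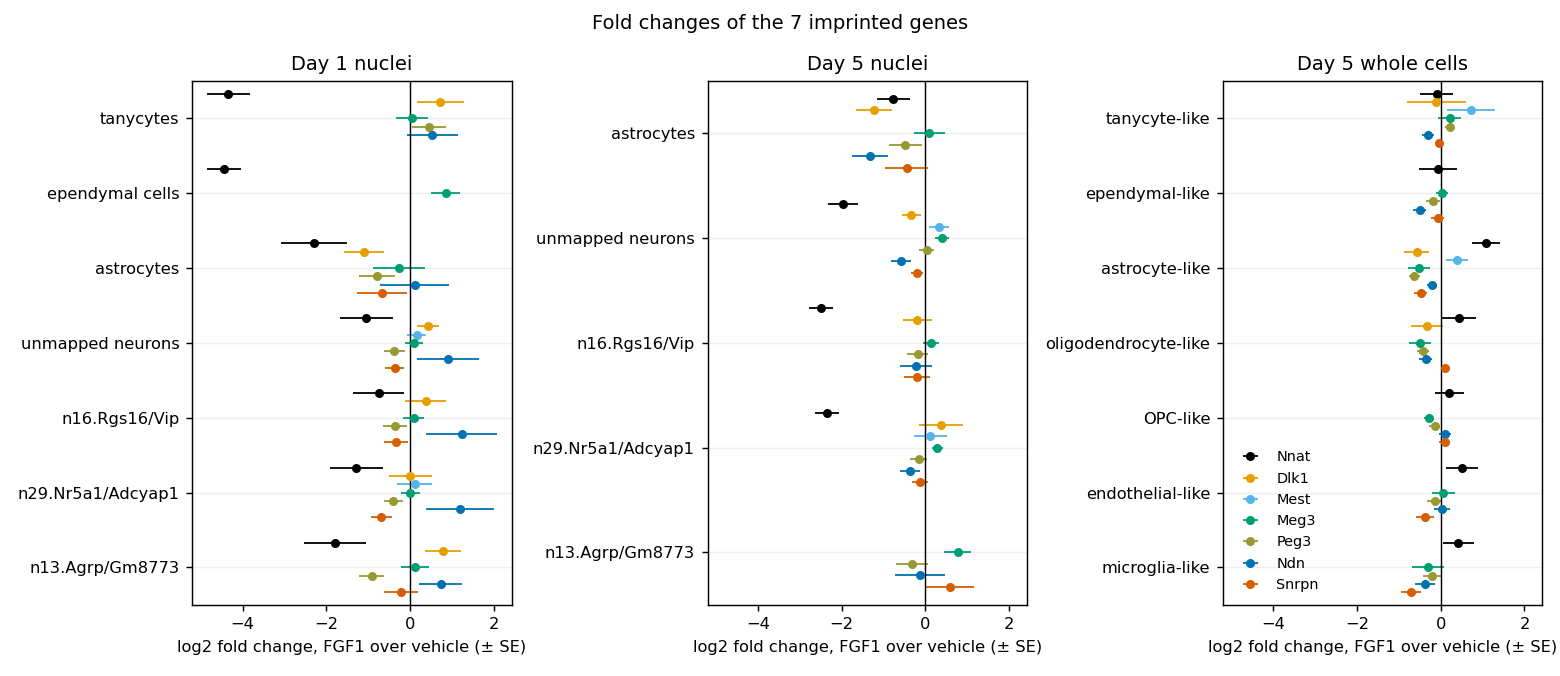
Log2 fold change of the 7 imprinted genes, FGF1 over vehicle, with its SE, in cell types of Day 1 nuclei, Day 5 nuclei and Day 5 whole cells. Points are left out where a gene did not pass the filter on low counts, and only Nnat reaches values under -2.

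Ndn was the other member with 1 sign over all nuclear types, and the sign differed between the days. On Day 1 it passed the filter in 15 of 18 types, its log2 fold change was above 0 in all 15 (median 0.73), and FGF1 mouse 1 was the highest of the 6 mice in each of them. Unmapped neurons held 542.3, 171.1 and 56.96 CPM in FGF1 mice and 71.98, 236.0 and 95.57 in vehicle mice. Tanycytes held 516.3, 179.4 and 56.81 against 139.4, 300.5 and 87.11 (log2 fold change 0.54 ± 0.60). Astrocytes held 577.3, 100.2 and 62.83 against 146.1, 425.5 and 71.67 (0.11 ± 0.83). The groups overlapped in every type, FGF1 was lower in 14 of 39 comparisons within a batch, and without FGF1 mouse 1 the value turned to -0.53 in tanycytes and -1.49 in astrocytes.

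The library that carried the Ndn values was the one richest in ribosomal protein UMIs. Over all neurons of Day 1, Ndn was 500.1 CPM in FGF1 mouse 1 (2.549% ribosomal), 239.4 in vehicle mouse 2 (1.555%), 161.8 in FGF1 mouse 2 (0.9669%), 94.63 in vehicle mouse 3 (0.9491%), 71.26 in vehicle mouse 1 (0.8922%) and 62.12 in FGF1 mouse 3 (1.014%). The 2 libraries highest in Ndn were the 2 with most ribosomal UMIs, whatever their treatment. Nnat in the same neurons was 541.5, 113.5 and 103.8 CPM in FGF1 mice 1, 2 and 3, and 589.0, 784.8 and 477.7 in vehicle mice 1, 2 and 3. The part of the ribosomal share in these values was not tested.

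**Figure D4:**
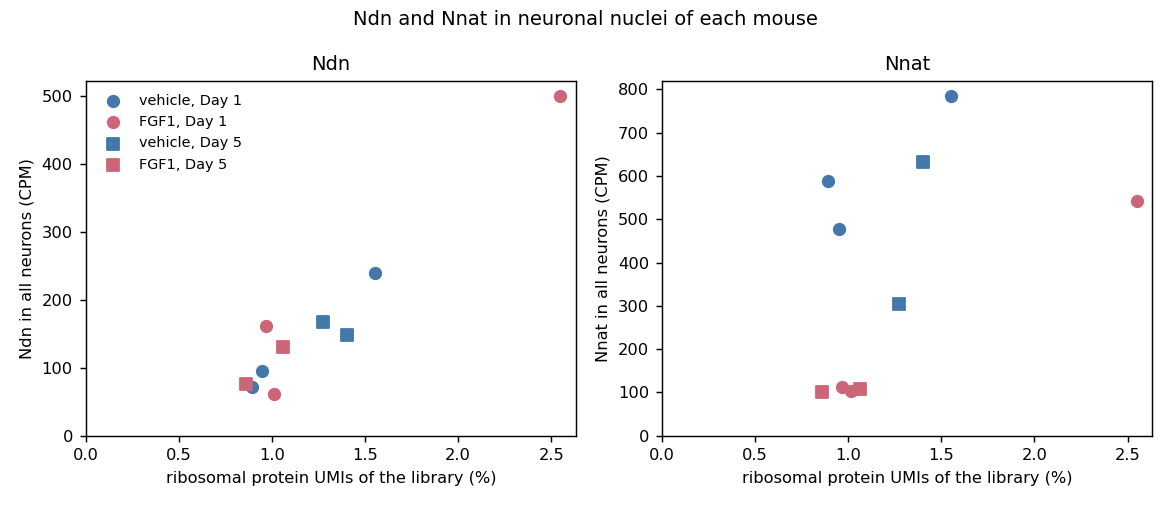
Ndn (left) and Nnat (right) in all neuronal nuclei of each library (CPM) against the percent of the library's UMIs from ribosomal protein genes, for the 6 Day 1 (circles) and 4 Day 5 (squares) mice. FGF1 mouse 1 of Day 1, at 2.549%, is the highest in Ndn, and 4 of the 5 FGF1 libraries lie near 100 CPM in Nnat.

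On Day 5, Ndn was below 0 on the log2 scale in 11 of 11 nuclear types (median -0.58), with FGF1 lower in 18 of 22 comparisons within a batch. Unmapped neurons held 143.2 and 85.22 CPM against 159.8 and 174.1 (-0.58 ± 0.24). Astrocytes held 117.6 and 119.5 against 416.0 and 130.9 (-1.32 ± 0.43), and the value was -0.26 without vehicle mouse 28. In whole cells Ndn was 344.4 ± 89.73 against 422.4 ± 73.94 CPM in tanycyte-like cells (log2 fold change -0.31 ± 0.15) and 166.4 ± 74.06 against 262.2 ± 34.57 in ependymal-like cells (-0.50 ± 0.16). In the latter, FGF1 mouse 6 held 32.1 CPM from only 19 cells. Ndn was not called in any type of the 3 datasets. Vehicle levels in whole cells ran from tanycyte-like (422.5 ± 73.96) to ependymal-like (262.1 ± 34.59) to OPC-like cells (177.3 ± 38.0), each step in 6 of 6 mice. In nuclei, astrocytes came first at 238.0 ± 169.1 CPM, a spread that overlapped the types below.

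Dlk1 and Meg3 share a domain. Dlk1 passed the filter in 9 of 18 types on Day 1, 3 with a log2 fold change below and 6 above 0. Astrocytes held 49.4, 14.66 and 28.56 CPM in FGF1 mice against 47.27, 72.05 and 77.19 (-1.09 ± 0.48), lower in all 3 batches, although FGF1 mouse 1 lay level with vehicle mouse 1. Tanycytes held 178.8, 46.51 and 90.9 against 27.89, 83.85 and 99.55 (0.73 ± 0.57), higher in all 3 batches while the groups overlapped, and the value was -0.04 without FGF1 mouse 1. On Day 5 Dlk1 passed the filter in 7 of 11 types, 5 below and 2 above 0 (median -0.32, up to 1.14), with FGF1 lower in 8 of 14 comparisons within a batch. In n13.Agrp/Gm8773 neurons, where Dlk1 did not pass it on Day 5, FGF1 mice held 36.86 and 61.95 CPM against 125.5 and 208.9. On Day 1 these neurons held 271.7, 125.1 and 199.2 against 132.6, 118.3 and 91.13. Day 5 astrocyte nuclei held 24.0 and 22.41 against 58.97 and 37.39 (-1.23 ± 0.43) without overlap, where 0.625% of all genes tested were called. In whole cells, astrocyte-like Dlk1 was 10.1 ± 5.374 against 13.5 ± 3.506 CPM (-0.57 ± 0.30), with FGF1 lower in 4 of 6 batches, while all 5 neuron markers fell in the same cells. It did not pass the filter within single clusters, with 1.524 ± 3.732 against 13.41 ± 3.509 in cluster 1 (8 and 115 UMIs in all) and 12.82 ± 6.962 against 20.08 ± 18.21 in cluster 4 (48 and 14 UMIs). Vehicle levels were highest in n16.Rgs16/Vip (155.1 ± 75.54) and n13.Agrp/Gm8773 neurons (135.3 ± 44.05) in nuclei, the latter being the neurons that drive feeding. In whole cells they were highest in tanycyte-like cells (77.74 ± 46.61, above pericyte-like cells at 25.3 in 6 of 6 mice). Of the tanycyte-like clusters, cluster 10 held 484.9 ± 192.9 CPM in vehicle mice against 10.81 in cluster 0 and 10.19 in cluster 7. FGF1 mice held 419.0 ± 144.6 in cluster 10. The genes nearest to Dlk1 over nuclear types were 2410131K14Rik (r = 0.683), St8sia4 (0.672), Smarca1 (0.668), Pex5l (0.668) and the imprinted Impact (0.666), and over whole-cell types Sumf1 (0.923), Epm2a (0.919), Lhx2 (0.907), Kctd14 (0.905) and Fundc2 (0.901).

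Meg3 stood apart from Nnat in Day 1 ependymal cells. They held 3038, 4726 and 2483 CPM in FGF1 mice against 2000, 1924 and 1944 in vehicle mice, a log2 fold change of 0.86 ± 0.35 without overlap, where 19% of all genes tested were called and Meg3 was not. In Day 1 tanycytes it was 0.04 ± 0.38, and over 18 types 11 were above and 7 below 0. On Day 5 it was above 0 in 11 of 11 nuclear types, from 0.09 to 0.77, and FGF1 was lower in 2 of 22 comparisons within a batch, all drawn from the same 4 mice. Summed neuron markers were also higher with FGF1 in unmapped and n16.Rgs16/Vip neurons, as given above. The same held in nuclei labelled COP (3753 to 3814 against 2708 to 3157 CPM) and Micro (4269 to 4700 against 3363 to 4207). They overlapped in astrocytes and nuclei labelled Olig, and their part in the Meg3 values was not tested. Unmapped neurons, where no gene was called (0.0%), held 17200 ± 3316 against 12820 ± 63.64 CPM (0.39 ± 0.16). In whole cells, tanycyte-like Meg3 was 1692 ± 739.6 against 1433 ± 322.9 (0.22 ± 0.27), and astrocyte-like Meg3 was 130.1 ± 53.05 against 183.1 ± 33.46 (-0.52 ± 0.26). Within astrocyte-like cluster 1 it was 85.77 ± 31.71 against 176.4 ± 36.57 (-1.10 ± 0.20), and within cluster 4 it was 158.1 ± 65.53 against 332.7 ± 166.6 (-1.22 ± 0.41), so the difference was larger within each cluster than over the class. All 5 neuron markers fell in these astrocyte-like cells, as given above for Nnat, and their part in the Meg3, Peg3 and Snrpn values of the class was not tested. In nuclei of vehicle mice, Meg3 was highest in neurons, at 18950 ± 1219 CPM in n01.Hdc neurons, and lowest in ependymal cells at 1956 ± 39.37. In whole cells, tanycyte-like cells came first (1433 ± 323.1), above OPC-like cells (863.1 ± 83.71) in 6 of 6 mice. The tanycyte-like clusters differed, with 5017 ± 370.7 in cluster 10, 1661 ± 290.9 in cluster 7 and 671.9 ± 95.37 in cluster 0, which held most of the cells and lay under the OPC-like mean. Its nearest genes over nuclear types were Matk (r = 0.898), Kcnh7 (0.896), Gabra2 (0.896), the imprinted Ube3a (0.888) and Lrrtm4 (0.885). Over whole-cell types they were Polr2i (0.925), Atxn10 (0.917), Ngfrap1 (0.907), Sfr1 (0.902) and Lsm4 (0.894).

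Mest was sparse in nuclei and passed the filter in 2 of 18 types on Day 1 and 4 of 11 on Day 5. Day 1 ependymal cells gave no Mest UMI in FGF1 mice and 1, 2 and 1 in vehicle mice, too few for a fold. In whole cells it passed in 2 of 11 types, with 142.7 ± 136.1 against 77.6 ± 35.39 CPM in tanycyte-like cells (log2 fold change 0.72 ± 0.56), where 1 FGF1 mouse held 410.3. As for Dlk1, cluster 10 was the tanycyte-like cluster rich in Mest, at 376.8 ± 240.1 CPM in FGF1 and 211.7 ± 152.4 in vehicle mice.

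Peg3 had a log2 fold change below 0 in 14 of the 16 Day 1 nuclear types in which it passed the filter (median -0.39), with FGF1 lower in 33 of 41 comparisons within a batch. Astrocytes held 155.4, 151.5 and 125.7 CPM in FGF1 mice against 202.0, 326.0 and 181.9 (-0.79 ± 0.44), so that every FGF1 mouse lay under every vehicle mouse, where 1.55% of all genes tested were called. Ependymal Peg3 did not pass the filter, at 57.05, 92.0 and 34.25 CPM against 139.5, 169.3 and 141.9, from 4, 8 and 2 against 9, 11 and 10 UMIs. Tanycytes went the other way, at 334.6, 212.6 and 113.6 CPM against 167.3, 132.8 and 199.1 (0.45 ± 0.41). FGF1 mouse 1 was the highest there, and the other FGF1 mice lay on either side of the vehicle range. On Day 5 Peg3 was below 0 in 8 of 11 nuclear types (median -0.18), but FGF1 was lower in only 9 of 22 comparisons within a batch, and the groups did not overlap in 3 types, 2 with FGF1 higher and 1 with FGF1 lower. In whole cells, astrocyte-like Peg3 ranged over 119.8 to 163.8 CPM in FGF1 mice and 143.9 to 266.5 in vehicle mice, with a log2 fold change of -0.64 ± 0.13, lower in 5 of 6 batches, and it was -0.56 ± 0.19 within cluster 1 and -0.47 ± 0.17 within cluster 4. All 5 neuron markers fell in the same cells. Tanycyte-like Peg3 was 304.8 ± 20.06 against 256.7 ± 27.62 (0.22 ± 0.10). In whole cells of vehicle mice the Peg3 level was highest in OPC-like cells (305.4 ± 35.64), above tanycyte-like cells (256.6 ± 27.63) in 6 of 6 mice. In vehicle nuclei it was highest in n03 (513.0 ± 84.97, n = 2) and n16.Rgs16/Vip neurons (416.0 ± 81.11, n = 5).

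Snrpn followed a like order on Day 1, with a log2 fold change below 0 in 13 of the 14 types in which it passed the filter (median -0.44) and FGF1 lower in 29 of 35 comparisons within a batch. Unmapped neurons held 192.3 ± 13.3 against 244.8 ± 65.8 CPM (-0.37 ± 0.23). On Day 5 it was below 0 in 7 of 11 nuclear types with a median of -0.01, and FGF1 was lower in only 8 of 22 comparisons within a batch. In whole cells, astrocyte-like Snrpn was 131.1 ± 26.78 against 181.8 ± 42.87 CPM (-0.48 ± 0.15), but -0.23 within cluster 1 and -0.06 within cluster 4, and tanycyte-like Snrpn was -0.03 ± 0.11. COP-like cells went the other way, at 334.4 ± 49.76 against 165.1 ± 89.43 CPM (0.53 ± 0.21), higher with FGF1 in 6 of 6 batches though the groups overlapped. The vehicle values rest on 16 to 51 cells and 2 to 27 UMIs per mouse. The fitted value weights mice by their UMIs, unlike the means. Vehicle nuclei held most in n06.Oxt neurons (370.3 ± 134.6) and least in ependymal cells (25.4). In whole cells oligodendrocyte-like cells stood high, at 256.4 ± 18.18. edgeR called Peg3 and Snrpn in astrocyte-like cells, where it called 12.6% of all genes, and since these contrasts served to pick the members, nothing is read from that.

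**Figure D5:**
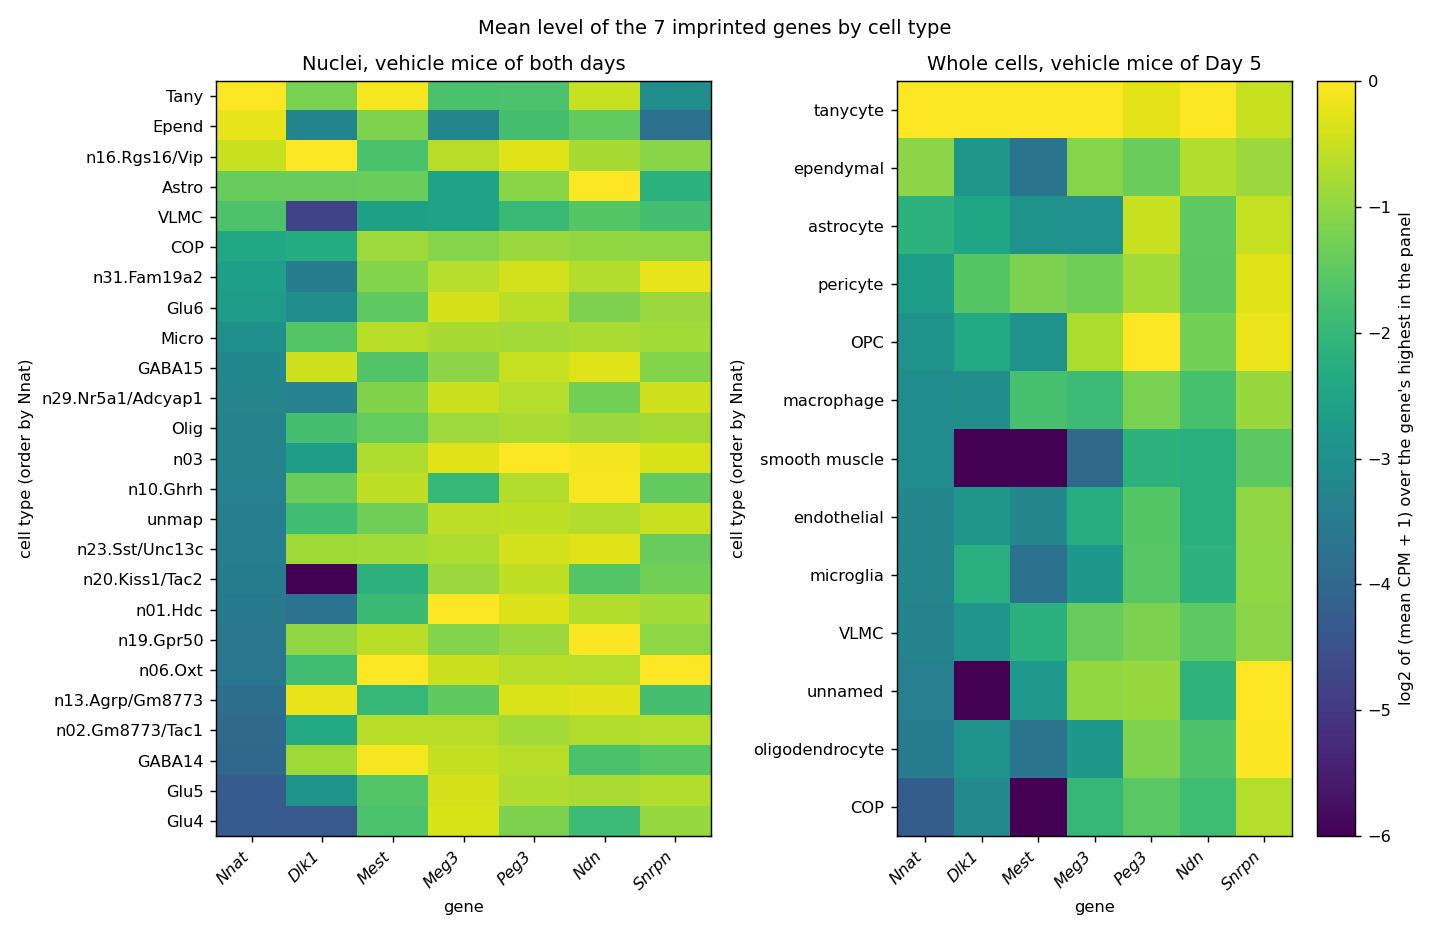
Level of each of the 7 imprinted genes per cell type in vehicle mice, for nuclei (25 types) and whole cells (13 types). Colour is the log2 of (mean CPM + 1) over the same gene's highest type in the panel, so colours compare types within a gene only. Nnat peaks in tanycytes in both panels, and in whole cells Dlk1, Mest, Meg3 and Ndn peak there too.

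A list of 56 other genes taken as imprinted in the mouse was read beside these, of which 47 were in the nuclei table and 45 in the whole-cell table. In Day 1 tanycytes 17 were tested, and 2 rose and 1 fell at an edgeR false discovery rate (FDR) under 0.05, where 9.14% of all genes were called. The median log2 fold change of the 17 was -0.0016, against 0.03 over all genes tested. Airn, the noncoding RNA that silences Igf2r and overlaps it on the other strand, rose in tanycytes from 27.89, 48.91 and 12.44 CPM in vehicle mice 1, 2 and 3 to 118.3, 139.5 and 238.6 in FGF1 mice (log2 fold change 2.27 ± 0.52, FDR 0.0168). It rose in ependymal cells too, from 93.02, 61.57 and 99.31 to 399.4, 437.0 and 650.7 (2.55 ± 0.36, FDR 0.000102). Every FGF1 mouse lay above every vehicle mouse in both types. The values rest on 41, 21 and 21 against 4, 7 and 1 UMIs in tanycytes, and 28, 38 and 38 against 6, 4 and 7 in ependymal cells. Airn thus passed the filter on low counts through the FGF1 mice, where it was high, so its calls are a description. Ependymal cells had 6 of the list tested, with Airn the one called, where 19% of all genes were called, and a median of 0.43 against -0.05 over all genes. Igf2r did not pass the filter in these Day 1 nuclei and was also higher with FGF1, on few UMIs. Tanycytes held 34.61, 46.51 and 22.72 CPM of Igf2r against 13.94, 13.97 and 0.0 (12, 7 and 2 against 2, 2 and 0 UMIs). Ependymal cells held 71.32, 57.5 and 51.37 against 31.01, 15.39 and 42.56 (5, 5 and 3 against 2, 1 and 3 UMIs). On Day 5 Airn held 70.07 and 57.04 CPM in tanycytes of FGF1 mice and 70.15 in those of vehicle mouse 38, and in tanycyte-like whole cells 2.706 ± 1.237 against 2.359 ± 0.8992. Introns were counted in nuclei but not in whole cells, so these levels are not compared between the preparations.

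Inpp5f, which encodes an inositol phosphatase, rose in Day 1 tanycytes from 20.92, 41.92 and 49.78 CPM to 210.6, 179.4 and 113.6 (2.22 ± 0.45, FDR 0.00882). Its UMIs were 3, 6 and 4 in vehicle and 73, 27 and 10 in FGF1 mice, so it too passed the filter through the FGF1 mice. Adam23, which encodes a cell adhesion protein of the ADAM family, fell from 313.8, 265.5 and 174.2 to 72.11, 59.8 and 22.72 (-2.18 ± 0.42, FDR 0.00652). Adam23 passed the filter through the vehicle mice, with 45, 38 and 14 UMIs against 25, 9 and 2. Without vehicle mouse 1 none of the 3 passed in tanycytes (FDR 0.127 for Airn, 0.109 for Inpp5f and 0.0564 for Adam23), and without vehicle mouse 3 Airn stood at 0.0534. The ependymal markers that fell in the same nuclei, and in ependymal cells beside Airn, are given above with Nnat, and their part in these calls was not tested. Blcap, in whose intron Nnat lies, was 54.78 ± 38.92 against 179.6 ± 44.83 CPM in the same cells, and did not pass (-1.55 ± 0.46, FDR 0.053). Its log2 fold change was smaller in size than that of Nnat. In tanycyte-like whole cells it was 112.8 ± 8.05 against 115.5 ± 9.29. In Day 1 astrocytes 22 of the list were tested and edgeR called none (0 at an unadjusted p under 0.05), and in Day 5 astrocyte nuclei 26 were tested and none called (5 at an unadjusted p under 0.05). The share of all genes under that unadjusted p is not given, so nothing is read from these counts.

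In astrocyte-like whole cells 26 of the list were tested and 3 fell, where 12.6% of all genes were called (median of the list -0.02, of all genes -0.02). Nap1l5, related to nucleosome assembly proteins, fell from 239.3 ± 50.91 to 137.3 ± 42.84 CPM (-0.81 ± 0.18, FDR 0.00715). Grb10, an adaptor that dampens insulin receptor signalling, fell from 11.16 ± 2.727 to 5.615 ± 4.313 (-1.14 ± 0.36, FDR 0.0362). Its UMIs were 7 to 28 per vehicle mouse and 0 to 8 per FGF1 mouse, so its call rests on few counts and is a description. Impact, a regulator of translation, fell from 126.7 ± 17.27 to 97.08 ± 11.34 (-0.38 ± 0.12, FDR 0.0331). All 5 neuron markers fell in these cells, and their part in the 3 values was not tested. In tanycyte-like cells Adam23 fell from 50.82 ± 14.73 to 33.8 ± 7.315 (-0.59 ± 0.17, FDR 0.0424), 1 of 31 tested where 5.08% of all genes were called, and in ependymal-like cells Tssc4, a splicing factor, rose from 33.0 ± 9.651 to 53.34 ± 12.96 (0.77 ± 0.20, FDR 0.0363), 1 of 17 tested where 1.28% of all genes were called. FGF1 mouse 6 gave only 1 Tssc4 UMI in ependymal-like cells (32.1 CPM). In the same ependymal-like cells 1 of 8 astrocyte markers and 1 of 4 neuron markers tested fell (834.4 to 1048 against 871.1 to 1567 and 128.4 to 381.8 against 260.1 to 588.6 CPM), and their part in the Tssc4 value, and in that of Ndn, was not tested. The Adam23 call in whole cells was lost in 9 of 12 leave-outs, by DESeq2 (FDR 0.0538) and within cluster 0 (0.115) and cluster 7 (0.224). In the same tanycyte-like cells 6 of 8 astrocyte markers fell (617.8 to 1045 against 917.6 to 1696 CPM), as did 1 of 4 neuron markers tested, and their part in the Adam23 value was not tested. Dio3, which inactivates thyroid hormone and belongs to the domain of Dlk1 and Meg3, was 14.78 ± 11.29 against 4.489 ± 4.061 CPM in tanycyte-like cells and did not pass (1.59 ± 0.59, FDR 0.157), but passed with the batch as a block (1.70 ± 0.33, FDR 0.00793). The cluster mix of this class differed, with 2728 FGF1 and 590 vehicle cells in cluster 7, 5458 and 4051 in cluster 0, and 1018 and 559 in cluster 10. Its part in the Dio3 value was not tested. Of the calls in tanycyte-like, ependymal-like and astrocyte-like cells, that of Nap1l5 held when each mouse was left out in turn. None of the 3 astrocyte-like calls held within single clusters, where the FDR in clusters 1 and 4 was 0.237 and 0.158 for Nap1l5 and 0.266 and 0.888 for Impact, and Grb10 was called in neither. The others were lost without some mice, as set out with the processing choices. OPC-like cells, whose share of genes called is given above, also gave edgeR calls. Tssc4 rose there (0.68 ± 0.19, FDR 0.0281), and Rasgrf1 (-0.81 ± 0.20, FDR 0.0131) and Impact (-0.62 ± 0.17, FDR 0.0321) fell. Within cluster 5 alone, which held most OPC-like cells, Rasgrf1 (FDR 0.0241) and Impact (FDR 0.0499) were called and Tssc4 was not. Leave-outs are not given for the OPC-like calls.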

How the data were processed

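Single-nucleus and single-cell libraries (10x Genomics, 3′ version 2) were aligned by the authors to GRCm38 with Cell Ranger 1.2. Per the study, nuclei were counted on an adapted reference that included introns, and whole cells on the standard one. Levels in nuclei and in whole cells are thus not on the same scale. The authors deposited whole-number UMI counts per gene and barcode together with sample, batch and cluster or cell type. Per the deposited metadata, whole cells also carry the percent of mitochondrial and ribosomal UMIs. The deposited normalized values were not used. The authors removed doublets, neurons and mixed clusters from the whole cells and ran no doublet caller on the nuclei, and none was run here. Of 24965 nuclei, 660 marked as filtered entered no cell type, and all 54890 cells were kept. The study removed nuclei that mapped ambiguously, and reports fewer nuclei and more whole cells than were used here. The limits of 5% and 20% that the study states would leave 24104 and 50508.

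UMI counts of a type were added up within each mouse (at least 10 nuclei or cells), filtered with filterByExpr, scaled by TMM and compared with edgeR 4.0.16 (R 4.3.3; glmQLFit, glmQLFTest) without covariates, with Benjamini-Hochberg adjustment over all genes tested in a type, and an FDR under 0.05 was called. The SE is the log2 fold change divided by the root of F. Whole-cell clusters were named from marker genes found in at least 10% of cells at 2 times the level elsewhere, with 3 markers needed. The fits were tested on simulated counts.

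The members and lists were chosen with earlier results of these data known. Named genes were all members, Igf2r beside Airn, and listed imprinted genes called in tanycytes, ependymal cells, astrocytes or OPC-like cells or sharing a member's domain. The 5 genes most correlated with Nnat, Dlk1 and Meg3 over types were named too. Alternatives were DESeq2 1.42.0, no filter, blocks, single clusters, the percent limits, thinning to 500 UMIs and leaving out each mouse. P-values measure the spread between mice of 1 group, and counting intervals were not used.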

Additional observations from a re-analysis of the deposited data

Results flagged for a closer look

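Of 42 groups of 6 whole-cell mice (7 genes in tanycyte-like, ependymal-like and astrocyte-like cells), 7 held a mouse whose gap to the nearest other mouse, divided by the range of the group, passed Dixon's critical value of 0.625. Chance flags about 1 group in 20. In tanycyte-like cells of FGF1 mouse 6, Dlk1 stood at 274.3 CPM (next mouse 93.37) and Mest at 410.3 (next 152.7), and 116 of its 290 tanycyte-like cells were from cluster 10, the cluster rich in both. In vehicle mouse 22, from the same batch, tanycyte-like Dlk1 stood at 167.5 (next 84.43), with 73 of 435 cells from cluster 10. Vehicle mouse 29 held Snrpn at 238.8 in tanycyte-like cells (next 183.9). In ependymal-like cells, FGF1 mouse 6 held Peg3 at 0.0 (next 93.24) and Snrpn at 64.2 (next 120.9) from only 19 cells, and vehicle mouse 27 held Dlk1 at 22.38 (next 11.25) from 8 UMIs.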

How the results depend on the processing

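No called value changed sign under the alternatives run. Leaving out 1 mouse turned the sign of uncalled ones: on Day 1 Ndn ranged from -0.53 to 1.12 in tanycytes and -1.49 to 1.19 in astrocytes, Dlk1 from -0.04 to 1.15 and Meg3 from -0.21 to 0.22 in tanycytes, and Meg3 from -0.48 to 0.07 in astrocytes. In Day 5 astrocyte nuclei Meg3 ranged from -0.27 to 0.67, Peg3 from -0.81 to 0.21 and Snrpn from -1.41 to 0.47. Calls of other imprinted genes, counted per gene and cell type, numbered 4 in Day 1 tanycytes, ependymal cells and astrocytes, and 8 without the filter (1 to 6 with a mouse left out). They numbered 0 in Day 5 nuclei and 1 without the filter (0 to 5). In tanycyte-like, ependymal-like and astrocyte-like whole cells they numbered 5 (1 to 7 with a mouse left out). They were 3 with DESeq2 and 1 with every cluster of these types fitted alone. Leaving out a mouse gave Nnat -5.02 to -4.04 in Day 1 tanycytes, -4.76 to -4.23 in ependymal cells and -3.64 to -1.91 in astrocytes, -1.15 to -0.12 in Day 5 astrocyte nuclei, and -0.39 to 0.07, -0.29 to 0.11 and 0.90 to 1.23 in whole cells of these types. In astrocyte-like cells Nnat was 0.39 in cluster 1 and 0.31 in cluster 4 alone. The share of ependymal nuclei with an Nnat UMI was 6.199%, 79.83%, 59.81% and 93.75% at 500 UMIs (Day 1 FGF1, Day 1 vehicle, Day 5 FGF1, Day 5 vehicle) and 42.27%, 100%, 95.6% and 100% unthinned, where the Day 5 vehicle values rest on 11 nuclei of mice under the limit of 10.

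The replicate numbers of Day 1 cross the batches, so they do not pair the mice. Deviations of same-numbered mice correlated between -0.263 and 0.283 in astrocytes and between -0.049 and 0.046 in tanycytes. Those of mice of 1 batch correlated between -0.419 and 0.024 and between -0.099 and 0.004, so these correlations cannot show a pairing. With the replicate number as a block, Nnat was -4.51, -4.49 and -2.77 in the 3 types and the count stayed at 4. With the batch, which holds 1 mouse of each group, as a block (for nuclei chosen after seeing the data), the counts were 4, 0 and 5, Nnat was -4.50, -4.48 and -2.82 on Day 1, and in whole cells the call of Impact was lost (FDR 0.0557) and that of Dio3 in tanycyte-like cells gained. Calls lost when a mouse was left out were those of Adam23 (FDR 0.0529 to 0.182 in 9 leave-outs, 0.0538 by DESeq2), Tssc4 (0.0614 to 0.143 in 8), Grb10 (0.0573 to 0.112 in 7) and Impact (0.0622 to 0.0985 in 7) in whole cells. The causes were not tested. Mice with few nuclei or cells limit the depth.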
